A study of Mus musculus with 18 samples.

Results

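Agpat4, Gm13767, Sec22c, Nmnat1 and Pkd1l2 are 5 of the 34745 genes in the table. They were chosen by measured values, as genes that separated the libraries labelled Zmat1 knockout (KO) from those labelled wild type (WT) before and after RANKL and that lie outside a pair of chromosome stretches where many label differences cluster on chromosomes 3 and 11. All 5 symbols were found on 1 row each, and all 5 genes passed the filter on low counts. Gm13767 passed it through the libraries labelled WT alone. Because the difference between the labels chose the genes, their label differences are given as a description with no test, and tests are given for RANKL within each label.

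Mouse bone marrow was cultured with M-CSF, on which macrophages depend, to obtain bone marrow-derived macrophages. RANKL, which drives these precursors to become osteoclasts that resorb bone, was added to M-CSF for 1 or 3 days, and day 0 had M-CSF alone, so that there were 6 groups of 3 libraries, 9 of each label. The mice were 4 to 8 weeks old. Those labelled KO carried a global deletion of Zmat1 on a C57BL/6 background, and those labelled WT (Zmat1+/+) came from the same crosses of heterozygotes. The labels do not say whether the libraries of a group came from separate mice, so a p-value covers the spread between these libraries, which may be technical.

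Zmat1, the gene named in the labels, was checked first. It had 49 to 99 counts in each library labelled KO and 32 to 91 in each labelled WT, and on day 0 it measured 5.13 ± 2.18 CPM and 4.35 ± 2.74 CPM (SD, n = 3 each). The knockout was therefore not visible in the counts of Zmat1, and every direction below is a direction by label only. Total counts per library ran from 13789775 to 17559958. The titles of 5 libraries (1 KO and 1 WT on day 0, 2 KO and 1 WT on day 1) have a double hyphen, whose meaning the labels do not give. In these the 10 most abundant genes took 18.02 to 19.9% of counts, against 11.8 to 15.3% in the other libraries of days 0 and 1. The WT day 1 group has a pair of libraries numbered 1, of which 1 has the double hyphen, and none numbered 3, so its n = 3 may hold 1 sample run again, although the counts of the pair were far from identical. The 8 macrophage markers summed to 28924 to 59505 CPM on day 0 and 6174 to 17117 CPM on day 3, and the 10 osteoclast markers rose from 224 to 988 CPM on day 0 to 8293 to 23381 CPM on day 3, over both labels (8293 to 17734 CPM in the libraries labelled KO and 16039 to 23381 CPM in those labelled WT). The 8 stromal or osteoblast markers went from 87.3 to 4457 CPM on day 0 to 19121 to 28168 CPM in the libraries labelled KO on day 3 and 10527 to 13644 CPM in those labelled WT on day 3. The 6 neutrophil markers summed to 2206 to 7979 CPM under the label KO and 442 to 2004 CPM under the label WT on day 0, and to 70.8 to 829 CPM and 27.5 to 50.4 CPM on day 3. The stromal sums on day 3 and the neutrophil sums on both days did not overlap between the labels. Nor did the osteoclast sums on day 0, at 670 to 988 CPM under the label KO and 224 to 649 CPM under the label WT. The sums of 4 B cell markers and of 4 T or NK cell markers also did not overlap on day 3. They reached at most 8.16 and 1.19 CPM, under the label KO. In bulk RNA, fewer cells of a type and less RNA per cell cannot be told apart, and the part of these other cells in the results below was not tested.

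The 5 genes have unrelated roles. Agpat4 encodes an acyltransferase that adds a second fatty acid to lysophosphatidic acid, a step by which glycerolipids are built. Sec22c belongs to the Sec22 family of proteins in vesicle traffic between the endoplasmic reticulum and the Golgi apparatus. Nmnat1 encodes the nuclear enzyme that joins nicotinamide mononucleotide to an adenylate group to make the cofactor NAD. Pkd1l2 encodes a large membrane protein related to polycystin 1. Gm13767 is annotated as an unprocessed pseudogene, a copy of a gene that makes no known protein.

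The genes lie on 5 different chromosomes (positions in GRCm38, from the table). Agpat4 (ENSMUSG00000023827) is at chr17:12118704-12219645 on the plus strand. The other 4 are on the minus strand, Gm13767 (ENSMUSG00000085547) at chr2:90358171-90383161, Sec22c (ENSMUSG00000061536) at chr9:121680047-121705490, Nmnat1 (ENSMUSG00000028992) at chr4:149467572-149485202 and Pkd1l2 (ENSMUSG00000034416) at chr8:116995679-117082449.

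The sequence of Gm13767 bears on how its counts can be read. Its annotated transcript of 876 bases (GENCODE vM21) matched bases 2728 to 3603 of the 7124-base transcript Ptprj-201 without a gap, with 865 bases the same (98.7%). Ptprj encodes a receptor-type tyrosine phosphatase of macrophages and other blood cells, and the matched bases are the end of its coding sequence, which runs from base 109 to base 3600. The 11 substitutions, with the Ptprj base first, the position counted from the first base of the Gm13767 transcript, and the Gm13767 base last, are G71A, C120T, C342A, C345T, C371T, A434G, C517T, T567C, T585C, C660T and C681T. The 120 bases printed here hold 4 of them, from C342A to A434G, and are shown because so few bases tell the pair apart. Capitals mark the bases that differ.
Gm13767: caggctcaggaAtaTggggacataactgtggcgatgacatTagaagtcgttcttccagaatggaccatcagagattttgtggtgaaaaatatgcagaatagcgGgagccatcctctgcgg
Ptprj: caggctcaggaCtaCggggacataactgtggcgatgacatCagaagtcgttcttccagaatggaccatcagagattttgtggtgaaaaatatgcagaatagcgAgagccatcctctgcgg
A pair of neighbouring pseudogenes is closer still. Bases 1 to 300 of Gm13767 were identical to the whole of Gm18953, and bases 300 to 837 were identical to 538 bases of Gm13768. Of the 827 runs of 50 bases in the Gm13767 transcript, 820 (99.2%) occurred unchanged in a transcript of another gene. How the authors' counting divided reads among such copies is not given in the sources used here, so the counts of Gm13767 are uncertain as the level of 1 locus.

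The same count of shared runs was low for the other members. It was 4 of 1866 runs (0.214%) in Agpat4, 3 of 5664 (0.053%) in Sec22c, 147 of 2608 (5.64%) in Nmnat1 and 164 of 7340 (2.23%) in Pkd1l2. All 164 runs of Pkd1l2 were shared with Gm15395, an antisense locus inside it that had 0 counts in every library. Of the shared runs of Nmnat1, 144 occurred in transcripts of CT010445.1. In all, transcripts of 123 other genes held at least 1 of the runs.

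Agpat4 showed the widest label difference among the members that were counted under both labels. On day 0 the libraries labelled KO measured 15.1, 19.5 and 16.5 CPM, and those labelled WT measured 0.660, 1.32 and 0.501 CPM. On day 1 the values were 22.2, 21.1 and 21.8 CPM against 1.42, 1.14 and 1.31 CPM. On day 3 they were 50.3, 57.4 and 36.3 CPM against 3.77, 3.35 and 3.14 CPM. Every library labelled KO was above every library labelled WT, on whatever day. The ratio of the means was 20.6 on day 0, 16.8 on day 1 and 14.04 on day 3, and the log2 differences were 4.36, 4.07 and 3.81.

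Nmnat1 went the other way. The libraries labelled KO measured 7.77, 7.23 and 9.03 CPM on day 0, and those labelled WT 44.8, 63.2 and 36.1 CPM. On day 1 the values were 7.44, 6.02 and 11.6 CPM against 40.6, 41.4 and 42.3 CPM. On day 3 they were 11.9, 10.9 and 9.35 CPM against 37.2, 36.7 and 39.0 CPM. Again no library of one label reached those of the other, and the highest KO value and the lowest WT value were a factor of 3.08 apart on day 3. The mean was 5.997 times higher under the label WT on day 0, 4.96 times on day 1 and 3.51 times on day 3 (log2 differences, KO minus WT, of -2.58, -2.31 and -1.81).

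Gm13767 had 0 counts in all 9 libraries labelled KO. The libraries labelled WT held 137, 187 and 193 counts on day 0, 107, 102 and 99 on day 1, and 97, 73 and 98 on day 3. These were 13.2 ± 1.68, 7.29 ± 1.45 and 4.93 ± 0.606 CPM (SD, n = 3 each). Taking 3 counts in each KO-labelled library as the most that a count of 0 allows, the level there was at least 59.7-fold lower on day 0, at least 35.5-fold lower on day 1 and at least 27.8-fold lower on day 3, limits that cover counting error only.

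Sec22c was higher under the label KO by a smaller factor. The libraries labelled KO measured 25.89, 25.995 and 26.14 CPM on day 0, 21.0, 25.7 and 24.0 CPM on day 1, and 12.8, 12.1 and 13.8 CPM on day 3. Those labelled WT measured 10.1, 9.67 and 10.5 CPM, then 12.5, 9.20 and 9.51 CPM, then 5.52, 4.53 and 7.41 CPM. Within each day the labels did not overlap, but the lowest KO library of day 3 lay below the highest WT library of day 1. The ratio of the means was 2.57, 2.27 and 2.22 on days 0, 1 and 3 (log2 differences of 1.36, 1.18 and 1.15).

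Pkd1l2 was the least regular. The libraries labelled KO measured 14.8, 6.69 and 11.8 CPM on day 0, 4.94, 4.65 and 9.25 CPM on day 1, and 2.62, 4.16 and 4.02 CPM on day 3. Those labelled WT measured 1.07, 1.70 and 0.930 CPM, then 0.500, 1.62 and 0.896 CPM, then 1.497, 0.941 and 0.842 CPM. No KO library reached down to a WT library on any day, yet the ratio of the means went from 8.98 on day 0 through 6.24 on day 1 to 3.29 on day 3 (log2 differences of 3.16, 2.61 and 1.71). The lowest value of the KO libraries on day 0 (6.69 CPM), both low values on day 1 (4.94 and 4.65 CPM) and the lowest WT value of day 1 (0.500 CPM) came from libraries with a double hyphen, of which day 3 has none. Without the 5 such libraries the log2 differences were 3.33, 2.87 and 1.70. The WT libraries held only 6 to 29 counts of this gene each, which limits the precision of these ratios.

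**Figure D1:**
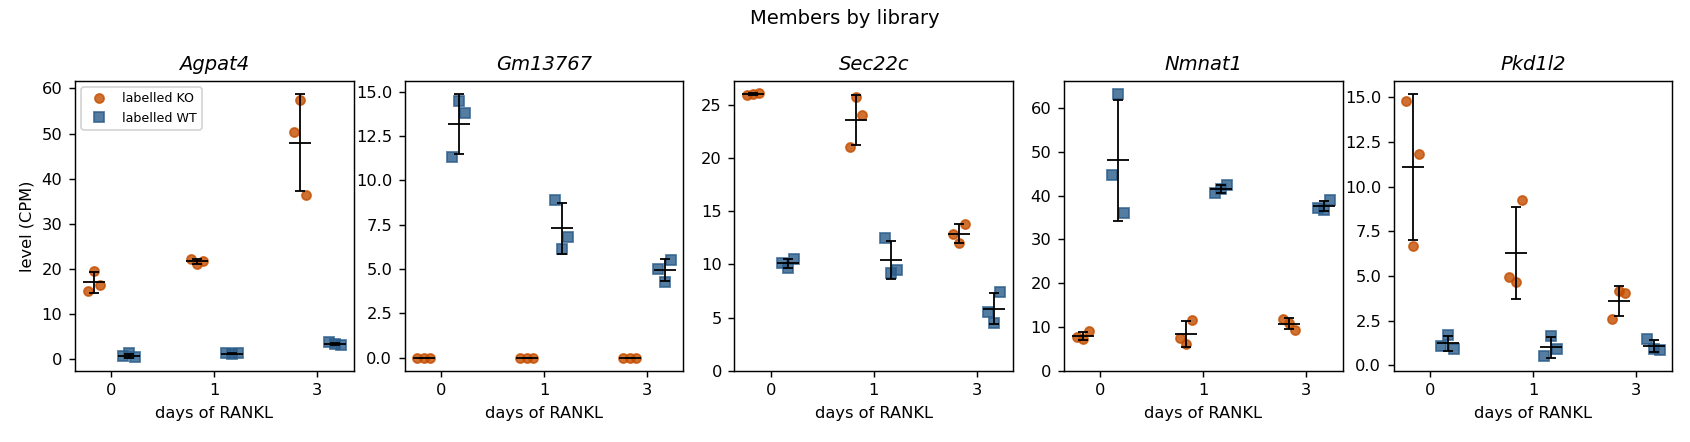
Level of each of the 5 genes in CPM (vertical axes, with 0 shown, a scale for each gene) by days of RANKL, with 1 point per library, circles for libraries labelled KO and squares for those labelled WT, and black bars for the mean ± SD of 3 libraries. Agpat4, Sec22c and Pkd1l2 lie higher under the label KO on each day, Nmnat1 lies lower, and Gm13767 is at 0 in all 9 libraries labelled KO.

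Taken over all 18 libraries, 4 of the 5 members kept the 9 libraries of each label apart, and Sec22c did not. That was so for 25 of the 14241 genes tested (0.176%), but the members were picked for this separation, so nothing is read from it. On the log2 scale the gap between the nearest libraries of the labels was 5.06 for Gm13767, 1.97 for Agpat4, 1.59 for Nmnat1 and 0.59 for Pkd1l2. After the members, the widest gaps outside the stretches were those of Tpm3-rs7 (0.85), Tmod4 (0.62) and Igkv2-112 (0.51). With edgeR, genes called between the labels at an adjusted p under 0.05 made up 0.119% of those tested on day 0, 0.112% on day 1 and 0.14% on day 3. The rule drew on these calls, so they say nothing further of the members. Pkd1l2 was the member just inside the rule, with the call on days 0 and 1 only. Not on the list, though also called on all 3 days, were Tpm3-rs7 on chromosome 14 (log2 differences of -1.71, -1.73 and -1.55) and Ublcp1. Ublcp1 lies at the edge of the chromosome 11 stretch (1.40, 0.99 and 0.86). The 5 members are thus not all the genes outside the stretches with such calls.

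The first tested question was whether RANKL changed these genes as osteoclasts formed. By day 3 it changed 3 of the 5 in the libraries labelled WT and 3 of the 5 in those labelled KO (edgeR quasi-likelihood test, adjusted p under 0.05 over all genes tested). Gm13767 had 0 counts in the libraries labelled KO and could not be called there. It passed the filter through those labelled WT alone. Agpat4 rose and Sec22c fell under both labels, Gm13767 fell in the libraries labelled WT, and Pkd1l2 fell in those labelled KO. Of all genes tested, 50.2% were called under the label WT (23.7% with a rise, 26.5% with a fall). Under the label KO 42.5% were called (20.2% with a rise, 22.3% with a fall). Beside these shares, 3 called of so few genes is not read as a result about the members. The values are relative to the median gene after TMM scaling, and when libraries were scaled by their totals instead the median gene stood at 0.33 under the label WT and 0.29 under the label KO on the log2 scale.

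Agpat4 rose from 17.04 ± 2.26 to 48.0 ± 10.7 CPM in the libraries labelled KO (SD, n = 3 each), a log2 fold change of 1.49 (SE 0.225, adjusted p = 2.20e-04, edgeR). In those labelled WT it rose from 0.825 ± 0.432 to 3.42 ± 0.319 CPM, a log2 fold change of 2.05 (SE 0.273, adjusted p = 5.43e-05, edgeR). The day 3 and day 0 libraries did not overlap under either label, as for 62.5% of genes tested in the libraries labelled WT and 58.8% in those labelled KO. The relative rise thus had the same direction at a starting level that differed by a factor of 20.6. Even so, the highest WT library after 3 days of RANKL (3.77 CPM) stayed below the lowest KO library before RANKL (15.1 CPM).

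Sec22c fell from 26.01 ± 0.126 to 12.9 ± 0.888 CPM in the libraries labelled KO, a log2 fold change of -1.01 (SE 0.167, adjusted p = 4.08e-04, edgeR). In those labelled WT it fell from 10.1 ± 0.419 to 5.82 ± 1.46 CPM (-0.80, SE 0.170, adjusted p = 0.00163, edgeR). No day 3 library overlapped a day 0 library of the same label. The WT call was lost with total counts in place of TMM (-0.43, adjusted p = 0.0537, edgeR) and with limma on log2(FPKM + 0.1) (-0.41, adjusted p = 0.0586), while the KO call held in both.

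Pkd1l2 fell in the libraries labelled KO from 11.1 ± 4.08 to 3.601 ± 0.851 CPM, a log2 fold change of -1.62 (SE 0.421, adjusted p = 0.00734, edgeR), and of -1.83 without the double-hyphen libraries (adjusted p = 0.00368, edgeR). In those labelled WT it measured 1.23 ± 0.412 CPM on day 0 and 1.09 ± 0.353 CPM on day 3, a log2 fold change of -0.17 (SE 0.456, adjusted p = 0.772, edgeR), with overlapping libraries. The responses differed by -1.45 on the log2 scale. This difference is the same quantity as the change of the label difference, which the choice of genes used, and it was not tested.

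Nmnat1 was not called under either label. In the libraries labelled WT it measured 48.0 ± 13.9 CPM on day 0 and 37.6 ± 1.21 CPM on day 3 (log2 fold change -0.35, SE 0.215, adjusted p = 0.181, edgeR), and in those labelled KO 8.01 ± 0.922 and 10.7 ± 1.29 CPM (0.42, SE 0.223, adjusted p = 0.142, edgeR). The KO libraries of day 3 all lay above those of day 0, and the WT libraries of these days overlapped. The KO change passed the threshold with total counts in place of TMM (0.71, adjusted p = 0.0488, edgeR) and with limma on log2(FPKM + 0.1) (0.68, adjusted p = 0.0454), and the WT value turned to 0.01 and 0.05 in the same settings.

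Gm13767 fell in the libraries labelled WT from 13.2 ± 1.68 to 4.93 ± 0.606 CPM (log2 fold change -1.42, SE 0.246, adjusted p = 0.00158, edgeR). Its day 3 and day 0 libraries did not overlap. No fold is given in the libraries labelled KO, where both days were at 0.

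After 1 day of RANKL, 2.35% of all genes tested were called in the libraries labelled WT and 0.0211% in those labelled KO by edgeR. Of the 5 members, 0 were called under either label, and Gm13767 could not be called under the label KO. At an unadjusted p under 0.05 there were 2 in the libraries labelled WT (Agpat4 and Gm13767) and 0 in those labelled KO. Gm13767 was already lower in every WT library of day 1 than in every one of day 0 (log2 fold change -0.86, SE 0.243, adjusted p = 0.0976, edgeR). The DESeq2 Wald test called it (adjusted p = 0.00945), as did edgeR without the double-hyphen WT day 1 library numbered 1 (adjusted p = 0.0438). Agpat4 stood at log2 values of 0.64 and 0.35 under the labels WT and KO (SE 0.292 and 0.222), and Sec22c at 0.04 and -0.14 (SE 0.169 and 0.165).

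**Figure D2:**
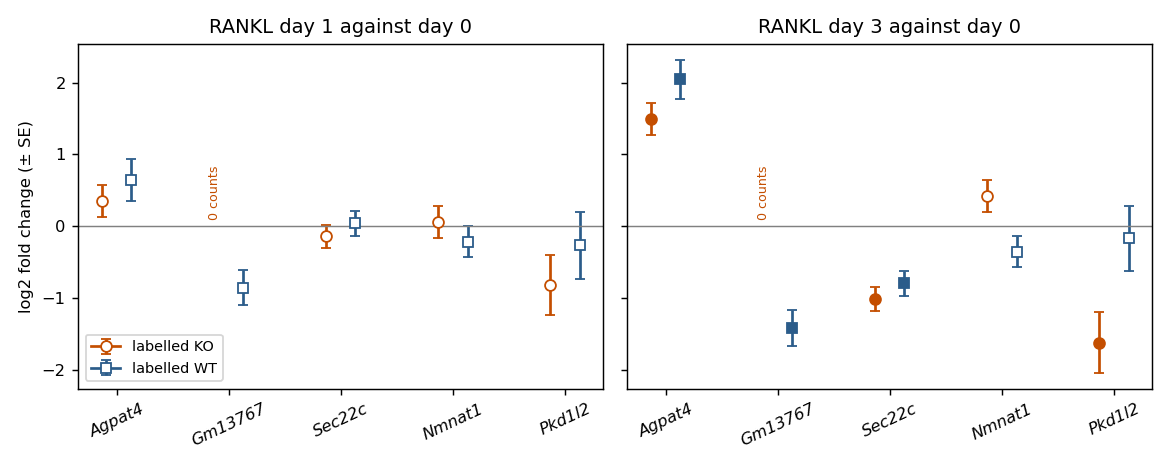
Log2 fold change of each gene after 1 day (left) and 3 days (right) of RANKL against day 0, with bars for the SE, circles for libraries labelled KO and squares for those labelled WT, filled where the adjusted p was under 0.05 in edgeR. On day 3 Agpat4 lies at 1.49 and 2.05, Sec22c at -1.01 and -0.80 and Pkd1l2 at -1.62 and -0.17 (KO and WT), and Gm13767 has no value in the libraries labelled KO because it had 0 counts.

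The windows before RefSeq start sites (GRCm38.p6) are shown so that the letters can be read beside these changes. They cover the 3 genes called after 3 days of RANKL that have a RefSeq promoter window. The windows end at the RefSeq start of each gene. For Agpat4 and Sec22c that start lies inside the locus given above, which spans all annotated transcripts, so these windows lie inside the locus too. Bases covered by an annotated exon were left out. Capitals mark the matches on either strand to TGANTCA (AP-1), GGAAA (the core of NFAT sites), CACGTG (an E-box), GAGGAA (PU.1), GGGCGG (GC box), CCAAT and TATAAA. Agpat4 is shown over chr17:12119034-12119283 (plus strand), Sec22c over chr9:121705030-121705213 and Pkd1l2 over chr8:117082450-117082699 (both minus strand).
Agpat4: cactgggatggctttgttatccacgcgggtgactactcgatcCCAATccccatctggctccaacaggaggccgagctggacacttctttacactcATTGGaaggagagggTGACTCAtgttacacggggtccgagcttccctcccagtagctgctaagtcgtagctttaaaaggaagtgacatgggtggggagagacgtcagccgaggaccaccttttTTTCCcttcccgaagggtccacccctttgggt
Sec22c: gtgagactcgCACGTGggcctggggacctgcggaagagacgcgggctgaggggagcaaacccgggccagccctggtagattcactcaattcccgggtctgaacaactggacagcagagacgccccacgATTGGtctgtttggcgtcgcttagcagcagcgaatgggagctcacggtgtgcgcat
Pkd1l2: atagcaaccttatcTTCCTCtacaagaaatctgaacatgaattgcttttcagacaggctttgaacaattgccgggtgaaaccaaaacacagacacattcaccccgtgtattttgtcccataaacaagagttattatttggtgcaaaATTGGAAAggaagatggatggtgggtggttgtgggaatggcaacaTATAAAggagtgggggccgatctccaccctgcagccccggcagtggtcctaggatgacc
The 250 bases before the RefSeq start of Agpat4 held 1 match to TGANTCA, which 6.75% of all 32851 windows of this length hold, 1 to GGAAA (55.6% of windows) and 2 to CCAAT (33.8%). The 184 bases shown for Sec22c held 1 match to CACGTG (4.90% of windows of this length) and 1 to CCAAT (27.8%). The 250 bases before the RefSeq start of Pkd1l2 held 1 match each to GAGGAA (23.3%), TATAAA (12.4%), GGAAA and CCAAT, the last overlapping the match to GGAAA by 2 bases. A match describes these letters only and is no sign that a factor binds there.

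The copies of Gm13767 were then read beside it. Ptprj measured 302, 392 and 340 CPM in the WT libraries of day 0 and 378, 330 and 239 CPM in the KO libraries, and 155, 164 and 163 CPM against 162, 135 and 143 CPM on day 3. Its labels overlapped on each of these days, and its log2 difference between the labels was -0.13, 0.28 and -0.13 on days 0, 1 and 3 (adjusted p of 0.898, 0.680 and 0.795, edgeR). Gm13768 measured 22.5 ± 4.28 CPM under the label WT and 17.3 ± 0.218 CPM under the label KO on day 0, and 9.31 ± 1.11 and 6.44 ± 1.15 CPM on day 3 (SD, n = 3 each). Gm18953 measured 7.18 ± 2.11 and 6.87 ± 1.43 CPM on day 0. Neither was called between the labels on any day, and of these 4 genes Gm13767 was the one with 0 counts under a label.

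Summed with Gm13768 and Gm18953, the pseudogenes measured 40.4, 50.8 and 37.5 CPM in the WT libraries of day 0 and 26.03, 23.5 and 22.9 CPM in the KO libraries. On day 1 the sums were 31.7, 20.5 and 25.4 CPM against 22.9, 22.8 and 11.3 CPM, which overlap, and on day 3 they were 19.7, 15.6 and 16.9995 CPM against 9.41, 9.05 and 8.33 CPM. The log2 difference of the sum was -0.83, -0.45 and -0.97 on days 0, 1 and 3, where Gm13767 alone was at 0 under one label. Gm13767, chosen for its label difference, is part of the sum. A lower sum under the label KO is therefore partly built in, and no test of it is given. The sum fell with 3 days of RANKL under the label WT (log2 fold change -1.30, SE 0.231, adjusted p = 4.44e-04, edgeR) and under the label KO (-1.44, SE 0.235, adjusted p = 3.90e-04, edgeR). This sum was added after the data were seen. Ptprj fell too (-1.10 and -1.11, adjusted p = 1.15e-04 and 1.89e-04, edgeR).

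**Figure D3:**
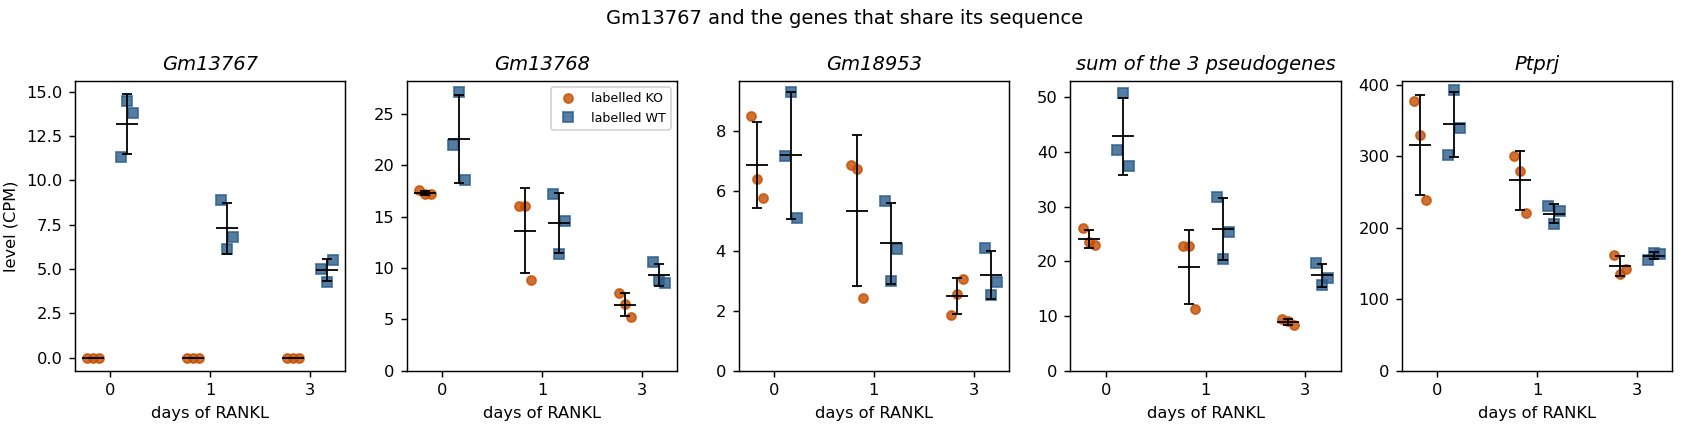
Level in CPM (vertical axes, with 0 shown) of Gm13767, the pseudogenes Gm13768 and Gm18953, the sum of the 3, and Ptprj by days of RANKL, with 1 point per library and black bars for the mean ± SD of 3 libraries. Gm13767 is at 0 in the libraries labelled KO. The sum, which includes Gm13767, is lower there on days 0 and 3 without overlap. Ptprj overlaps between the labels on day 0.

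Whether genes beside the members differed between the labels as well was asked of the tested genes within 500 kb. There were 46 of them, 4 beside Agpat4, 7 beside Gm13767, 12 beside Sec22c, 14 beside Nmnat1 and 9 beside Pkd1l2. On each of the 3 days 0 of the 46 were called between the labels by edgeR, beside 0.119%, 0.112% and 0.14% of all genes tested, and the median size of their log2 difference was 0.24. Within 1000 kb, 1 of 86 was called on day 3 and 0 on the other days. That gene, named after its value was seen, was Mybpc3, beside Gm13767, with a log2 difference of -1.84 (adjusted p = 0.0418, edgeR).

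The nearest genes gave closer views. Map3k4, a kinase of stress signalling, lies 7.98 kb from Agpat4 and measured 30.7 ± 3.798 CPM under the label KO and 30.8 ± 4.32 CPM under the label WT on day 0, with log2 differences of -0.00463, -0.11 and -0.04 on days 0, 1 and 3. Park2, on the other side at 55.3 kb, gave -0.02, 0.14 and -0.38. Neither neighbour had a difference near that of Agpat4. The pseudogene Tdgf1-ps2 inside the Agpat4 locus had at most 2 counts in any library.

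Lzic starts 26 bases beyond the Nmnat1 locus, on the opposite strand. It measured 13.9 ± 1.79 CPM under the label KO and 11.96 ± 3.94 CPM under the label WT on day 0 (log2 difference 0.21, adjusted p = 0.887, edgeR), and its differences on days 1 and 3 were -0.11 and -0.04. The head-to-head neighbour of Nmnat1 thus had no difference near that of Nmnat1. On the other side, at 40.8 kb, Ube4b, a factor that extends ubiquitin chains, ran from 71.1 to 95.7 CPM in the 9 libraries labelled KO and from 102 to 160 CPM in the 9 labelled WT. These did not overlap, and the log2 differences were -0.60, -0.59 and -0.38 (adjusted p of 0.350, 0.302 and 0.389, edgeR).

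Vipr1, a receptor for vasoactive intestinal peptide, lies 7.09 kb from Sec22c and ran from 1.61 to 4.08 CPM in the libraries labelled KO and from 0.301 to 1.53 CPM in those labelled WT, again without overlap. Its log2 differences were 1.80, 1.55 and 0.72 (adjusted p of 0.374, 0.463 and 0.603, edgeR), in the direction of Sec22c. Deb1, 4.90 kb away on the other side, gave 0.18, 0.42 and 0.08. Of the 46 genes, Ube4b and Vipr1 were those whose 9 libraries of each label did not overlap, beside 0.176% of all genes tested.

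Gcsh, a subunit of the glycine cleavage system 2.14 kb from Pkd1l2, had log2 differences of 1.09, 0.58 and 0.43 (adjusted p of 0.0882, 0.561 and 0.475, edgeR). On day 0 it measured 26.6 ± 5.97 CPM under the label KO and 12.5 ± 2.28 CPM under the label WT. Gm18953 and Ptprj, described above, are the nearest tested genes to Gm13767, at 117 and 46.6 kb.

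**Figure D4:**
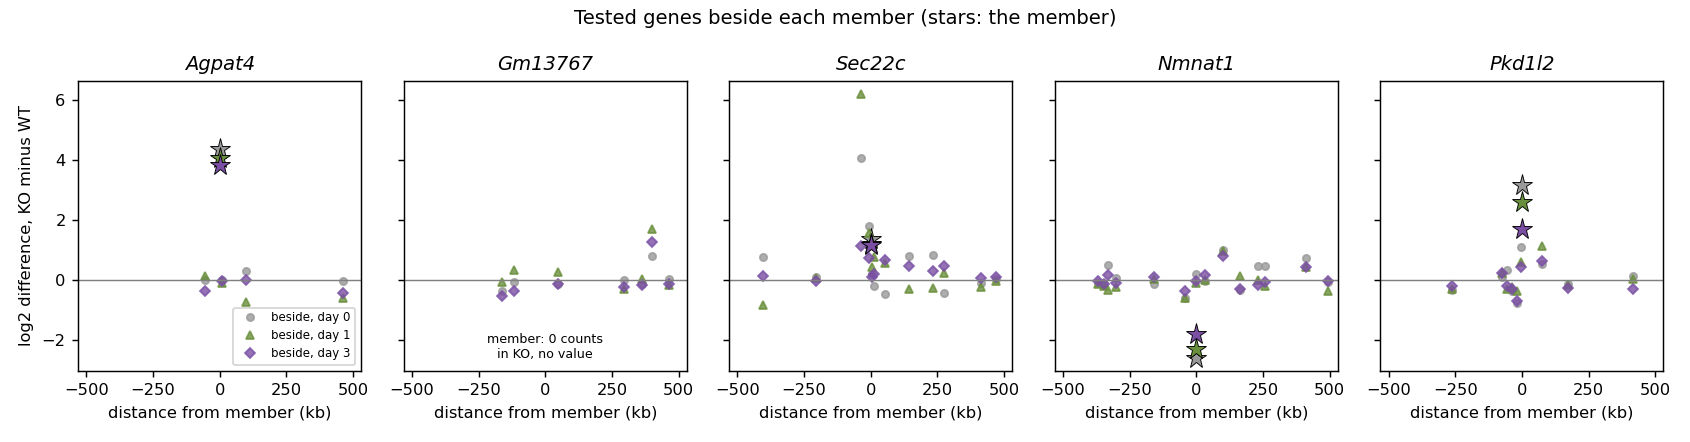
Log2 difference KO minus WT (vertical axis) of the tested genes within 500 kb of each member against their distance in kb, negative before the locus and positive after it, with symbols for days 0, 1 and 3 and stars for the member itself. The members lie away from most genes around them, but they were chosen for this difference, so nothing is read from it. Gm13767 has no star because it had 0 counts in the libraries labelled KO. The highest points beside Sec22c are those of Lyzl4, whose adjusted p was 0.362 on day 1.

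Levels per length (FPKM, as the authors deposited them) place each member among its relatives. The Agpat genes encode enzymes of the same reaction. Agpat4 made up 10.3% ± 0.566 of the summed FPKM of Agpat1 to Agpat5 in the libraries labelled KO on day 0 and 29.6% ± 7.07 on day 3 (SD, n = 3). In those labelled WT its share was 0.597% ± 0.326 and 2.80% ± 0.258. On day 3 under the label KO it measured 15.1 ± 3.83 FPKM, beside 14.7 ± 4.74 FPKM for Agpat1, so these levels do not differ beyond their spread, while under the label WT it was at 1.11 ± 0.0958 FPKM and the lowest of the 5. The summed FPKM was 51.2 ± 5.92 under the label KO and 39.5 ± 0.682 under the label WT.

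Per length, Nmnat1 had the highest mean of its family in each of the 6 groups, with a lead over Nmnat3 that was narrow under the label KO. It held 89.1% ± 1.40 of the summed FPKM of Nmnat1, Nmnat2 and Nmnat3 in the libraries labelled WT on day 0 and 58.6% ± 7.83 in those labelled KO, where it was as low as 46.4% in 1 library of day 1. The sum was 10.2 ± 2.91 FPKM under the label WT and 2.64 ± 0.103 FPKM under the label KO. Nmnat3, which makes the same product and is linked to mitochondria, measured 1.08 ± 0.164 FPKM under the label WT and 1.07 ± 0.197 under the label KO (log2 difference -0.03, adjusted p = 0.990, edgeR). It rose with RANKL in the libraries labelled WT (log2 fold change 0.70, adjusted p = 0.0135, edgeR) and stood at 0.52 in those labelled KO (adjusted p = 0.0601, edgeR).

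Sec22c was below Sec22b per length in each of the 6 groups. Sec22b, the best known of the 3 in vesicle fusion, measured 5.55 ± 0.395 FPKM under the label WT and 5.96 ± 0.634 FPKM under the label KO on day 0, and Sec22a 2.04 ± 0.303 and 2.15 ± 0.204 FPKM. Sec22c measured 0.992 ± 0.072 and 2.61 ± 0.175 FPKM, so that on day 0 it lay above Sec22a under the label KO and below it under the label WT. On day 3 it was below Sec22a under both labels (1.58 ± 0.0671 against 2.702 ± 0.116 FPKM under the label KO). The share of Sec22c in the summed FPKM went from 24.4% ± 2.98 on day 0 to 11.4% ± 0.859 on day 3 under the label KO. Under the label WT it went from 11.6% ± 0.480 to 6.25% ± 1.69. Sec22b rose with RANKL in the libraries labelled KO (log2 fold change 0.40, adjusted p = 0.0202, edgeR), opposite to Sec22c, and stood at 0.28 in those labelled WT (adjusted p = 0.0756, edgeR).

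Pkd1l2 was low per length, at 1.12 ± 0.466 FPKM under the label KO and 0.121 ± 0.0427 FPKM under the label WT on day 0. Its relative Pkd1l1 had at most 1 count in any day 0 library and reached 5.01 ± 1.11 CPM in the WT libraries and 2.92 ± 1.79 CPM in the KO libraries on day 3. Pkd1l3 did not pass the filter on low counts.

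**Figure D5:**
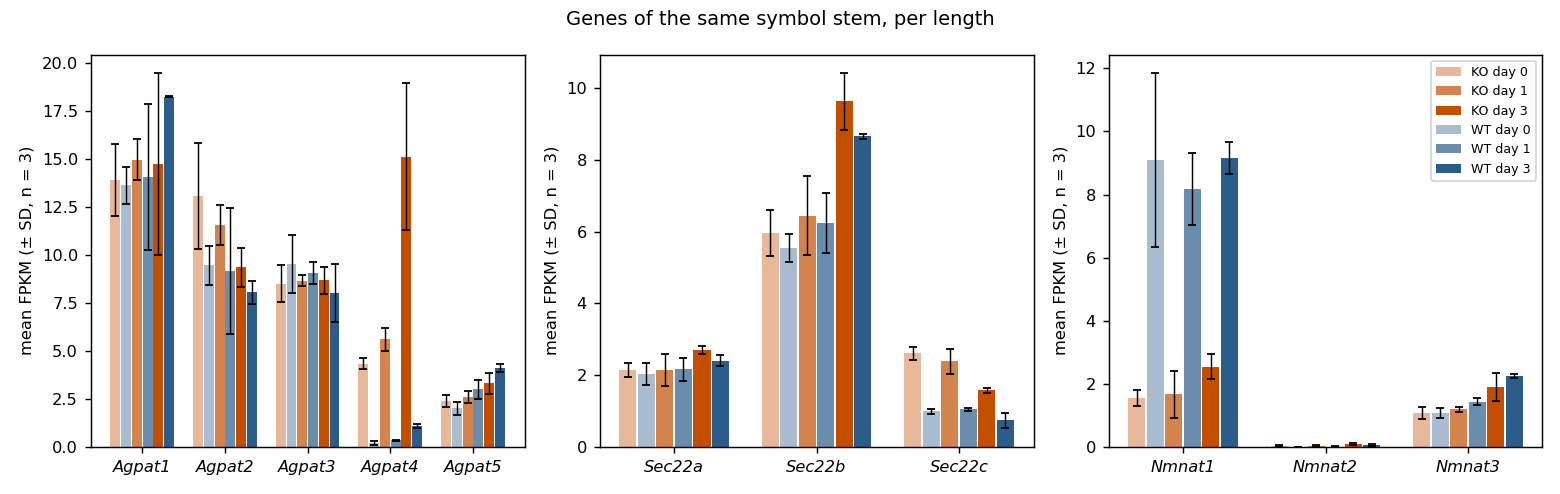
Mean FPKM of Agpat1 to Agpat5, of the Sec22 genes and of the Nmnat genes (vertical axes from 0), with bars for the SD of 3 libraries, orange for libraries labelled KO and blue for those labelled WT, darker with more days of RANKL. Agpat4, Sec22c and Nmnat1, chosen for a label difference, separate by label on each day. Agpat4 is at 15.1 against 1.11 FPKM on day 3 and Nmnat1 at 1.55 against 9.09 FPKM on day 0 (KO and WT). Bars of some relatives also part by label on a single day, such as Sec22b on day 3 (9.63 ± 0.785 and 8.66 ± 0.0762 FPKM).

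The other genes of the members' pathways were looked up in the same fit. Without the member, 0 of 28 tested genes of NAD synthesis and use, 0 of 23 glycerolipid acyltransferases and phosphatases, 0 of 34 SNAREs and coat proteins between endoplasmic reticulum and Golgi, and 0 of 3 polycystins were called between the labels on any of the 3 days by edgeR. With 0.119%, 0.112% and 0.14% of all genes called, lists of this size would hold none at the background rate. The median log2 differences of the lists on day 3 were -0.04, 0.09, 0.06 and 0.45, beside 0.02 over all genes tested.

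With 3 days of RANKL more genes of the lists were called, to be read against the 50.2% and 42.5% of all genes called under the labels WT and KO. Those named from the lists were chosen after their values were seen. Of the 28 NAD genes, 3 rose and 11 fell by day 3 in the libraries labelled WT (median log2 fold change -0.22, beside -0.03 over all genes), and 1 rose and 9 fell in those labelled KO (-0.44, beside -0.00523), so the share called was no higher than over all genes. Cd38, which breaks NAD down at the cell surface, fell under the labels WT and KO (log2 fold changes of -4.17 and -2.45), and so did Kmo, an enzyme of the route from tryptophan (-4.25 and -3.49). Nampt, which makes the substrate of Nmnat1, also fell (-0.84 and -0.82).

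Of the 23 genes listed with Agpat4, 6 rose and 7 fell in the libraries labelled WT, and 5 rose and 8 fell in those labelled KO, beside 23.7% and 26.5% of all genes rising and falling under the label WT and 20.2% and 22.3% under the label KO. Under the label WT Agpat3 fell (log2 fold change -0.61) and Agpat5 rose (0.66), and neither was called in those labelled KO (-0.26 and 0.16). Cds1 and Cds2, which turn phosphatidic acid towards phosphatidylinositol, fell under both labels (-1.69 and -1.37 in WT, -1.42 and -1.17 in KO). Of the 34 genes listed with Sec22c, 11 rose and 5 fell in the libraries labelled WT, and 15 rose and 4 fell in those labelled KO, to be read against the same shares. The coat proteins Sec24d (0.88 and 1.13) and Sec31a (0.80 and 1.09) rose under both labels while Sec22c fell. Of the 3 polycystins tested, 2 rose in the libraries labelled WT and 3 in those labelled KO, Pkd2 among them (0.60 and 1.17).

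The genes most like each member over the 18 libraries were found by Pearson's r of log2 CPM, which the label difference itself dominates. They were Frzb (r = 0.927), 5830417I10Rik (0.927) and Ublcp1 (0.9205) for Agpat4, and Cgn (0.9856), Gm12220 (0.9855) and Tpm3-rs7 (0.957) for Gm13767. For Sec22c they were Slc36a1 (0.955), Tpm3 (0.930) and 9930111J21Rik2 (0.913), for Nmnat1 Cgn (0.9755), Gm12220 (0.957) and Sntb2 (0.895), and for Pkd1l2 9930111J21Rik2 (0.896), 5830417I10Rik (0.887) and Tpm3 (0.879). Of these 15 places in the lists, 11 were held by genes of the stretches on chromosomes 3 and 11, where label differences cluster, and since the label difference chose the members nothing is read from this.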

How the data were processed

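RNA-seq of 18 libraries was analysed from one table. The authors deposited a raw count and an FPKM (fragments scaled by gene length and library size) per gene and library, and the submitters' processing notes name StringTie and the builds GRCm38.p4 and mm10. The aligner and the treatment of reads that match several genes are not given in the sources used here. Groups came from the genotype and treatment labels, and 0 columns were left unmapped. Counts were filtered with filterByExpr, which kept 14241 genes, scaled by TMM and fitted over 6 groups with the quasi-likelihood test of edgeR 4.0.16 in R 4.3.3, with Benjamini-Hochberg adjustment over all genes tested. CPM are counts relative to library totals after TMM. Alternatives were DESeq2 1.42.0, limma 3.58.1 on log2(FPKM + 0.1) and log2(FPKM + 1), other filters and scalings, a replicate block, the doubtful libraries left out, and each library left out in turn. Total counts in place of TMM and the sum of the pseudogenes were chosen after seeing the data. Levels at 0 were set to 3 counts per library for bounds, which cover counting error only. Totals of 13789775 to 17559958 counts set the depth. The script was tested on simulated data.

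Named genes were the members, the nearest tested gene on each side and any overlapping gene, relatives with the same symbol stem, the 3 genes most like each member, the 3 widest gaps between labels after the members, and Zmat1. Not every gene this rule names is reported here. The members and lists were chosen with earlier results of these data known. For same-numbered libraries of days 0 and 3, r of the deviations from the group mean was 0.13, 0.135 and 0.398 under the label KO. Under the label WT it was 0.111, -0.023 and 0.0514. Between days 0 and 1 it was 0.0536, 0.501 and 0.598 under the label KO. The WT day 0 library numbered 1 gave 0.604 with the double-hyphen day 1 library and -0.464 with the single-hyphen one, and number 2 gave 0.138. With values this uneven, the numbers were not taken to pair the libraries. Transcripts came from GENCODE vM21 and upstream sequences from RefSeq (GRCm38.p6).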

Additional observations from a re-analysis of the deposited data

How the results depend on the processing

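The numbers of genes called after 3 days of RANKL ranged over 2 to 3 of 5 in the libraries labelled WT. They ranged over 3 to 4 in those labelled KO, where Gm13767 had 0 counts and could not be called. Sec22c was lost under the label WT (also with log2(FPKM + 1), -0.20, adjusted p = 0.0927, limma), and Nmnat1 was gained under the label KO as given above. Leaving out each library in turn gave 3 and 3. After 1 day the number in the libraries labelled WT was 1 in place of 0, Gm13767 each time, with the DESeq2 Wald test, with limma on log2(FPKM + 0.1) and log2(FPKM + 1) and without the double-hyphen WT day 1 library numbered 1, a range of 0 to 1 over the libraries left out, and it stayed 0 in those labelled KO. Within 1000 kb in place of 500 kb, 1 gene beside the members was called on day 3. With the replicate number as a block, which does not rest on a known pairing, the counts after 3 days were 3 and 3 and no call of a member changed.

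No alternative turned the sign of a label difference. On log2(FPKM + 1) they were smaller, at 2.15, 2.30 and 2.91 for Agpat4, 0.86, 0.72 and 0.57 for Sec22c, -1.95, -1.81 and -1.53 for Nmnat1 and 0.90, 0.56 and 0.34 for Pkd1l2 on days 0, 1 and 3, since the added 1 shrinks low levels, and on log2(FPKM + 0.1) Pkd1l2 was 2.40 on day 0.

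Values that were not called changed sign. For Nmnat1 after 3 days in the libraries labelled WT, limma on log2(FPKM + 0.1) gave 0.0503, limma on log2(FPKM + 1) gave 0.0427 and total counts gave 0.0119. For Pkd1l2 they gave 0.105, 0.0210 and 0.188, and leaving out each library gave -0.464 to 0.163. After 1 day in the libraries labelled WT, Sec22c was -0.0987 without the 5 double-hyphen libraries and -0.0139 with the libraries numbered 1 averaged, and with each library left out it ran from -0.106 to 0.126, Nmnat1 from -0.383 to 0.0386 and Pkd1l2 from -0.793 to 0.0403. In those labelled KO, Nmnat1 ran from -0.258 to 0.253. The cause was not tested. Low counts of Agpat4 and Pkd1l2 under the label WT limit their ratios.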
